A study of Gallus gallus with 6 samples.

Results

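The 10 genes described here bear the symbols of the angiopoietin, Tie and VEGF signalling proteins of vessel endothelium, or of its surface markers, in the chicken ileum. They were chosen by their symbols among the 17623 genes of the table, and each of the 10 symbols is present once. For 9 of them the RefSeq table gives the same gene, but the gene that the file calls CD93 has the RefSeq symbol CD248, with CD93 as a synonym. CD248 is in mammals a related protein of pericytes and fibroblasts, so which of these proteins this chicken gene corresponds to is not settled here. CD93, PTPRB and angiopoietin-2 were taken up because earlier results on the same 6 libraries placed them among the genes with the smallest unadjusted p for diet. Their relatives ANGPT1, TEK, TIE1, KDR, FLT1, FLT4 and MCAM were then added. The diet differences of the 10 are therefore given as a description and support nothing beyond themselves. Where a test of all genes called some of the 10, the call is no evidence.

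Ileum came from Taiping chickens of 2 months, all labelled male. In the 3 MP_FOS libraries the birds drank water with 2 mL of probiotics and 1 mL of fructo-oligosaccharide per litre, and the 3 CT libraries are from birds without these additives. A feed of corn and soybean was common to both groups. The labels do not say whether each replicate is 1 bird, so the spread between replicates 1 and 3 of a diet may be technical. Total counts ran from 11833015 to 17687232 in the MP_FOS libraries and from 16056240 to 18106651 in the CT libraries. Of all genes, 13774 passed a filter on low counts and were tested, the 10 vessel genes among them.

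Against the label of male birds, transcripts of the W chromosome, which only hens carry, were abundant in 4 libraries. The W-linked gene Wpkci-7 (HINTW) had 2047, 0 and 1846 counts in MP_FOS replicates 1, 2 and 3, against 2438, 3 and 2804 counts in CT replicates 1, 2 and 3. Replicate 2 of each diet thus stood apart, with 0 counts in MP_FOS and 3 in CT. Its difference from replicates 1 and 3 of the same diet is therefore not technical alone. Results that rest on the replicates numbered 2 are also given without both of them.

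Angiopoietins are secreted ligands of TEK, also called Tie2, a receptor tyrosine kinase of endothelial cells. In mammals, angiopoietin-1 from cells around the vessel activates TEK and keeps vessels quiescent, while angiopoietin-2, which endothelial cells store and release themselves, opposes or modulates that signal. VEGF ligands act through KDR, FLT1 and FLT4 to drive the growth and permeability of blood and lymph vessels. In the intestine these vessels form the capillary bed and the lacteal of each villus, through which absorbed nutrients leave.

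All 10 genes had a lower mean in MP_FOS ileum than in CT ileum, with a median log2 fold change (edgeR, MP_FOS minus CT) of −0.58. Over all 13774 genes tested the median was 0.01, and 48.5% of genes lay below 0. Together the 10 made up 0.0318, 0.0259 and 0.0282% of counts in MP_FOS replicates 1, 2 and 3, against 0.0459, 0.0414 and 0.0502% in CT replicates 1, 2 and 3. In 5 of them, angiopoietin-2, TEK, PTPRB, CD93 and MCAM, each MP_FOS library lay below each CT library in CPM (counts scaled to library size, with TMM factors). Among all genes tested 8.49% lay so, 8.2% had every MP_FOS library above every CT library, and 16.7% lay either way. Because this same contrast led to the choice of the genes, nothing is read from the difference. The count was 5 with DESeq2 size factors (8.47% of all genes) and 7 on the authors' FPKM, where 12% of all genes lay so, and 7 without both replicates numbered 2 (19.6%). With 1 library left out it was 5 to 9, the 9 without MP_FOS replicate 1 (18.6%). Less RNA from each cell and fewer of the cells that make these RNAs, endothelial or other, cannot be told apart in RNA of whole ileum. Lists of other cell types, some of them also lower in MP_FOS, are described below.

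**Figure D1:**
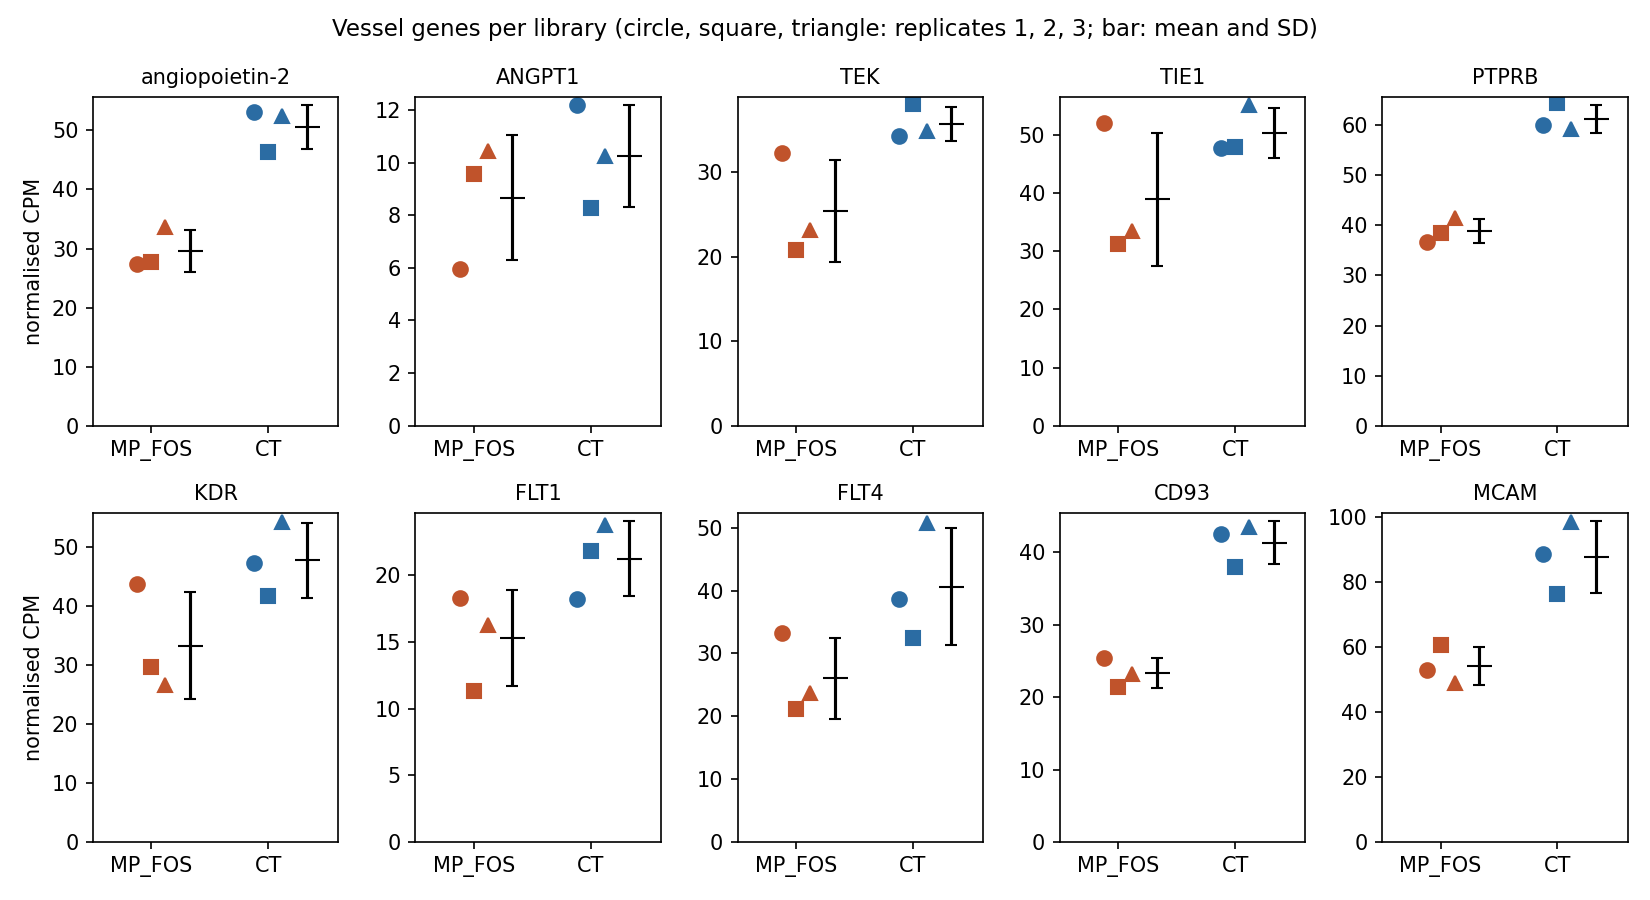
Normalised CPM of the 10 vessel genes in every library, with MP_FOS on the left and CT on the right of each panel; symbols mark replicates 1, 2 and 3, and bars give the mean and SD (n = 3). In angiopoietin-2, TEK, PTPRB, CD93 and MCAM the diets do not overlap, and in TIE1, KDR, FLT1 and FLT4 MP_FOS replicate 1 (circle) lies within the CT range.

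Of the ligands, angiopoietin-2 (ENSGALG00000036189), the ligand that endothelium itself makes, had 27.4, 27.7 and 33.7 CPM in MP_FOS replicates 1, 2 and 3, against 53.0, 46.3 and 52.4 CPM in CT replicates 1, 2 and 3. The 3 MP_FOS libraries lay close together and well under the lowest CT library. Its mean was 29.6 ± 3.55 CPM in MP_FOS and 50.6 ± 3.75 CPM in CT (SD, n = 3 each), a log2 fold change of −0.77 ± 0.13 (SE). ANGPT1 (ENSGALG00000029983), the TEK agonist, had 5.97, 9.56 and 10.5 CPM in MP_FOS replicates 1, 2 and 3, against 12.2, 8.29 and 10.3 CPM in CT replicates 1, 2 and 3. Its groups overlapped, with only MP_FOS replicate 1 below the CT range. The log2 fold change of −0.24 ± 0.27 was smaller than its error. It was −0.04 without MP_FOS replicate 1, −0.40 without MP_FOS replicate 3, −0.10 without CT replicate 1, −0.38 without CT replicate 2 and −0.45 without both replicates numbered 2.

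Of the Tie receptors, TEK did not overlap between diets and TIE1 did. TEK (ENSGALG00000001840), the angiopoietin receptor, had 32.3, 20.8 and 23.2 CPM in MP_FOS replicates 1, 2 and 3, against 34.3, 38.0 and 34.8 CPM in CT replicates 1, 2 and 3, a log2 fold change of −0.49 ± 0.18. MP_FOS replicate 1 lay just under the lowest CT library and the other MP_FOS libraries far below it. TIE1 (ENSGALG00000009957), a co-receptor that binds no angiopoietin strongly by itself and modulates TEK, had 52.1, 31.3 and 33.5 CPM in MP_FOS replicates 1, 2 and 3, against 47.7, 48.0 and 55.2 CPM in CT replicates 1, 2 and 3. MP_FOS replicate 1 stood among the CT libraries here, and the log2 fold change of −0.37 ± 0.21 was −0.64 without it and −0.23 without MP_FOS replicate 2.

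TEK lies on the Z chromosome in the RefSeq assembly GRCg7b, and hens carry a single Z. The replicates numbered 2, with 0 and 3 Wpkci-7 counts, did not stand on the same side in both diets: MP_FOS replicate 2 was the lowest MP_FOS library for TEK and CT replicate 2 the highest CT library. With both left out, the TEK log2 fold change was −0.31.

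PTPRB (ENSGALG00000010049), the vascular endothelial phosphatase that dephosphorylates TEK and associates with VE-cadherin, had 36.7, 38.4 and 41.5 CPM in MP_FOS replicates 1, 2 and 3, against 60.1, 64.3 and 59.3 CPM in CT replicates 1, 2 and 3. Its SD was the smallest of the 10 relative to the mean in both diets, at 38.9 ± 2.43 CPM in MP_FOS and 61.3 ± 2.71 CPM in CT (SD, n = 3 each). The log2 fold change was −0.66 ± 0.11, and it ran from −0.74 to −0.61 over 14 alternative settings.

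The VEGF receptors overlapped between diets in CPM (FLT1 and FLT4 did not in FPKM), and in each of them MP_FOS replicate 1 was the highest MP_FOS library. KDR (ENSGALG00000013907), the main signalling receptor for VEGFA, had 43.7, 29.6 and 26.6 CPM in MP_FOS replicates 1, 2 and 3, against 47.3, 41.7 and 54.3 CPM in CT replicates 1, 2 and 3, a log2 fold change of −0.52 ± 0.21. FLT1 (ENSGALG00000017091), which binds VEGFA tightly and in mammals largely acts as a decoy, had 18.3, 11.3 and 16.3 CPM in MP_FOS replicates 1, 2 and 3, against 18.2, 21.8 and 23.7 CPM in CT replicates 1, 2 and 3, a log2 fold change of −0.47 ± 0.21. MP_FOS replicate 1 and CT replicate 1 were level in FLT1. FLT4 (ENSGALG00000005802), the receptor of VEGFC and VEGFD that lymphatic endothelium depends on, had 33.3, 21.1 and 23.7 CPM in MP_FOS replicates 1, 2 and 3, against 38.7, 32.4 and 50.8 CPM in CT replicates 1, 2 and 3, a log2 fold change of −0.64 ± 0.23. CT replicate 3 was the highest library in all 3 receptors. Without MP_FOS replicate 2 the FLT1 value was −0.30, and without both replicates numbered 2 it was −0.27.

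The genes named CD93 and MCAM were low in every MP_FOS library. CD93 (ENSGALG00000008359) names in mammals a transmembrane protein with a C-type lectin-like domain, through which endothelial cells bind the matrix protein MMRN2, while its RefSeq symbol here is CD248. It had 25.4, 21.4 and 23.2 CPM in MP_FOS replicates 1, 2 and 3, against 42.6, 38.0 and 43.5 CPM in CT replicates 1, 2 and 3. Its log2 fold change of −0.83 ± 0.13 was the most negative of the 10, and the MP_FOS mean was 56.4% of the CT mean. MCAM (ENSGALG00000030027), an adhesion molecule of endothelial and mural cells, had 52.9, 60.5 and 48.8 CPM in MP_FOS replicates 1, 2 and 3, against 88.4, 76.2 and 98.2 CPM in CT replicates 1, 2 and 3, a log2 fold change of −0.70 ± 0.15. The gap between the highest MP_FOS library and the lowest CT library was formed by the replicates numbered 2, and without both of these libraries the value was −0.87.

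Levels of different genes were compared on the authors' FPKM, which scales for transcript length. In MP_FOS the highest mean was that of MCAM at 13.4 ± 1.13 FPKM, followed by angiopoietin-2 (12.1 ± 1.77), TIE1 (11.1 ± 3.23) and CD93 (9.62 ± 0.932), and the libraries of each of these overlapped those of the next. In CT the order was MCAM (22.9 ± 3.35 FPKM), angiopoietin-2 (21.7 ± 2.09), CD93 (17.9 ± 1.68) and TIE1 (15.1 ± 1.5), where MCAM and angiopoietin-2 overlapped, as did CD93 and TIE1 (SD, n = 3 throughout). PTPRB, TEK and KDR formed a middle tier in both diets, at 6.53, 6.26 and 6.11 FPKM in MP_FOS and 10.9, 8.88 and 9.24 FPKM in CT. FLT1 and FLT4 overlapped each other at 3.51 and 3.22 FPKM in MP_FOS and 5.10 and 5.29 FPKM in CT. ANGPT1 had the lowest mean in both diets, 2.29 ± 0.648 FPKM in MP_FOS, where it overlapped FLT4, and 2.85 ± 0.591 FPKM in CT, where it did not overlap FLT1.

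**Figure D2:**
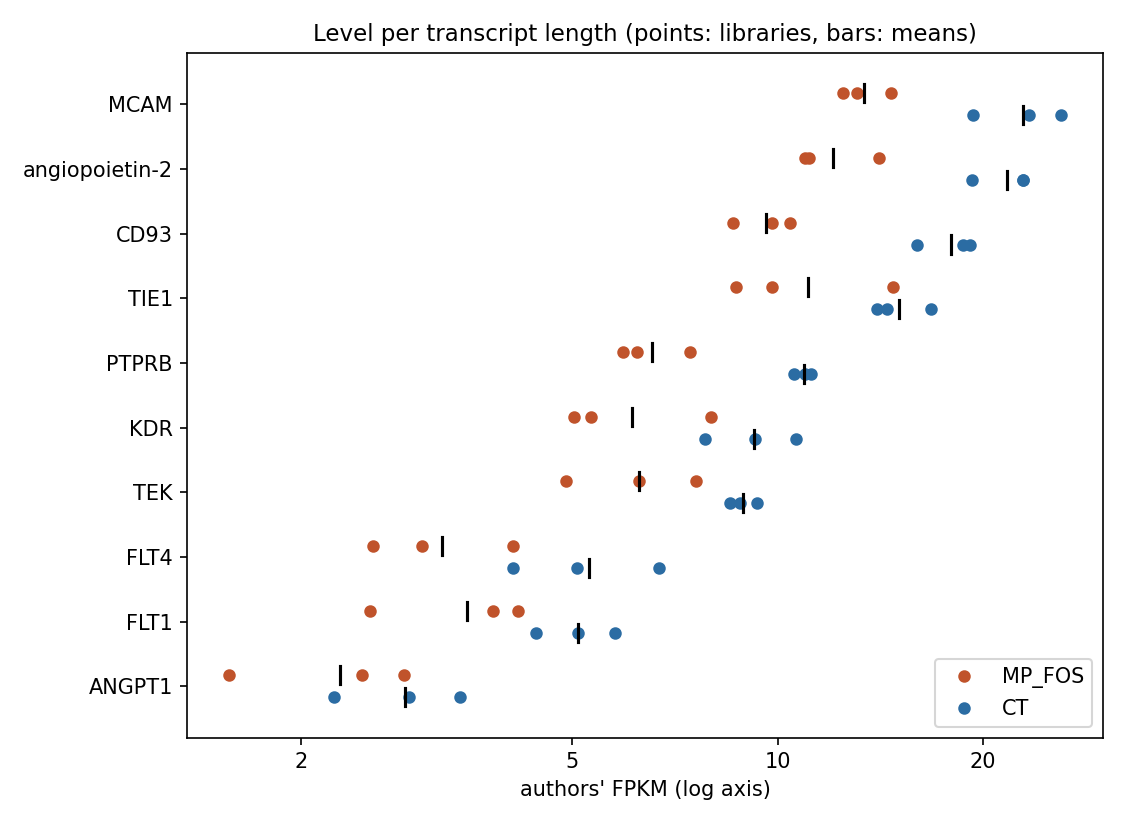
FPKM of the 10 vessel genes on a log axis, ordered by the CT mean, with MP_FOS libraries above CT libraries in each row; points are libraries and bars are means. MCAM and angiopoietin-2 head the order and ANGPT1 ends it in CT, at means of 22.9, 21.7 and 2.85 FPKM.

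Angiopoietin-2 exceeded ANGPT1 in every library. The FPKM ratio of angiopoietin-2 to ANGPT1 was 7.09, 4.46 and 4.98 in MP_FOS replicates 1, 2 and 3, against 6.69, 8.60 and 7.94 in CT replicates 1, 2 and 3, and the diets overlapped. TIE1 exceeded TEK in every library, by a ratio of 1.76 ± 0.191 in MP_FOS and 1.70 ± 0.203 in CT (SD, n = 3 each). KDR exceeded FLT1 by a ratio of 1.78 ± 0.411 in MP_FOS and 1.82 ± 0.278 in CT. The ratio of PTPRB to TEK was 0.782, 1.27 and 1.19 in MP_FOS replicates 1, 2 and 3, against 1.29, 1.20 and 1.20 in CT replicates 1, 2 and 3. Only in MP_FOS replicate 1 did the receptor exceed its phosphatase.

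The table also holds a gene without a symbol that it describes as a kdr-like receptor of VEGF (ENSGALG00000007646; RefSeq symbol VEGFRKDRL), which lies outside the rule and was looked at after its values were seen. Its level was above that of KDR, FLT1 and FLT4 in every library, with 30.8, 20.4 and 24.3 FPKM in MP_FOS replicates 1, 2 and 3, against 40.4, 38.2 and 44.4 FPKM in CT replicates 1, 2 and 3. Its groups did not overlap, but its log2 fold change of −0.63 ± 0.17 did not pass (edgeR quasi-likelihood test, adjusted p = 0.445, Benjamini-Hochberg over all genes tested).

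The 5 receptor kinases, TEK, TIE1, KDR, FLT1 and FLT4, differed from the other 5 genes in 1 library. In MP_FOS replicate 1 the kinases lay between −0.26 and 0.05 from their CT means in log2 CPM, while angiopoietin-2, ANGPT1, PTPRB, CD93 and MCAM lay between −0.88 and −0.70. MP_FOS replicates 2 and 3 did not separate the genes in this way: the kinase medians were −0.77 and −0.62, and the medians of the other 5 were −0.67 and −0.58. In CT libraries every one of the 10 genes lay within −0.30 and 0.35 of its CT mean. The split by protein type was noticed in these values and was not tested. A level near CT in MP_FOS replicate 1 was not particular to kinases. Of gene lists described below, endothelial transcription factors had median deviations of −0.04, −0.49 and −0.43 in MP_FOS replicates 1, 2 and 3. Tip cell, Notch and artery or vein genes had −0.01, −0.40 and −0.41, and junction and surface genes −0.10, −0.38 and −0.26. Mural, lymphatic and VEGF ligand lists lay lower in MP_FOS replicate 1, at −0.40, −0.29 and −0.25.

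**Figure D3:**
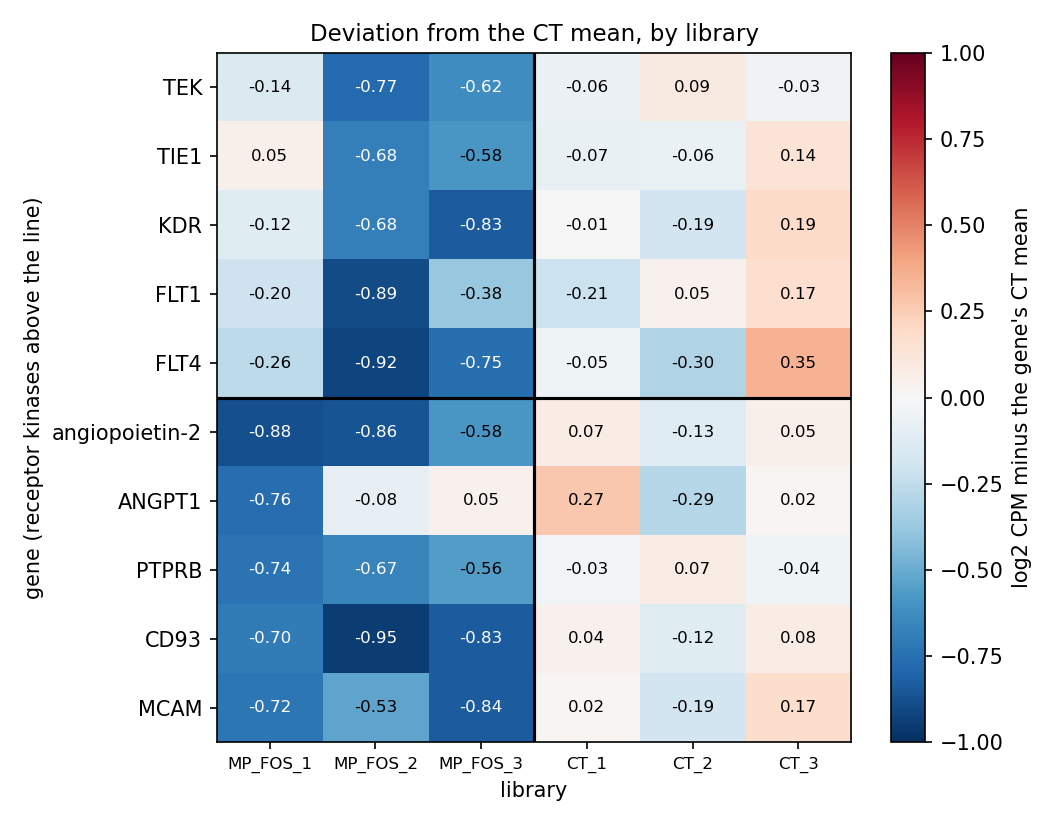
Log2 CPM of each of the 10 genes in each library minus the CT mean of that gene, with MP_FOS libraries left of the vertical line and receptor kinases above the horizontal line. In MP_FOS replicate 1 the kinases lie between −0.26 and 0.05 and the other genes between −0.88 and −0.70.

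Libraries of the same diet also varied. After the mean of its own diet was taken from each library, the correlation of log2 CPM over the 6 libraries was 0.93 for FLT4 with CD93, 0.92 for TIE1 with KDR, 0.90 for TEK with TIE1 and 0.89 for KDR with FLT4. PTPRB with KDR (−0.90) and ANGPT1 with TEK (−0.88) ran in opposite directions. Over all 45 pairs the median was 0.18, 26 were above 0, and 5 exceeded 0.8. These 6 points share their libraries and depth and have lost the diet means, so the values are a description.

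The mean of the 10 genes within diets was most like that of PANX3 (r = 0.999), SCUBE1 (0.998), RGS14 (0.996), CA8 (0.993), ZHX1 (0.993), LETMD1 (0.992), TGFBR2L (0.991) and RARRES2 (0.990), among 10143 genes with a symbol and a mean of at least 5 CPM. Of these 10143, 208 had r above 0.9 over the 6 libraries. How many would do so by chance was not tested, so the likeness is a description. SCUBE1, a secreted and surface glycoprotein of endothelium and platelets in mammals, had 9.43, 4.34 and 6.07 CPM in MP_FOS replicates 1, 2 and 3, against 13.9, 9.74 and 18.3 CPM in CT replicates 1, 2 and 3. Its diets did not overlap, narrowly, and its log2 fold change was −1.08 ± 0.35 (edgeR, adjusted p = 0.448, Benjamini-Hochberg). RGS14 and RARRES2 varied within diets like the mean of the vessel genes, which single members did not all follow. Their log2 fold changes between diets were near 0, at −0.05 ± 0.19 and −0.05 ± 0.15.

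The annotation in the table gave the 10 genes shared terms. Such terms follow from the choice of genes with these symbols and are a description. Angiogenesis was attached to 6 of them (angiopoietin-2, ANGPT1, TEK, TIE1, PTPRB and MCAM) and to 118 of all genes tested. Sprouting angiogenesis was attached to 5 (ANGPT1, TEK, KDR, FLT1 and FLT4) and to 27 of all genes tested, and the Tie signalling pathway to angiopoietin-2, ANGPT1 and TEK, the only 3 genes tested that carry it. CD93 carried neither angiogenesis term.

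In the test of all genes, edgeR's quasi-likelihood test called 0 of 13774 at an adjusted p of 0.05 (Benjamini-Hochberg), which is 0%, and 1457 had an unadjusted p under 0.05. DESeq2 called 104 of 14210 genes with an adjusted p (0.732%), of which 36 were lower in MP_FOS (0.253%) and 68 higher (0.479%). Angiopoietin-2, PTPRB, CD93 and MCAM were among those 36, and TEK, TIE1, KDR, FLT1, FLT4 and ANGPT1 were not. CD93, PTPRB and angiopoietin-2 were taken up for their small p in this same contrast, so their calls follow from the choice. MCAM was added as a relative with these results known, and nothing is read from these counts.

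The wider vessel programme was described by 8 lists, a list of hypoxia response genes among them, with 122 different tested genes other than the 10. None of the 122 passed edgeR (smallest adjusted p = 0.445, Benjamini-Hochberg) and none passed DESeq2. An unadjusted p under 0.05 in edgeR was reached by 19 genes that were lower in MP_FOS (15.6% of the 122) and 6 that were higher (4.92%), where 4.86% and 5.72% of all genes tested did so. The hypoxia list held 4 of the 6 higher genes and 0 of the 19 lower, so the shares are not of vessel genes alone. The lists were drawn up with earlier results of these data known, so these shares are a description. Without MP_FOS replicate 1, 3 of the 122 passed edgeR, VCAM1, LDHA and HK2, all of them higher in MP_FOS. In that fit 223 of all 14002 genes tested passed, 180 of them higher. LDHA and HK2 belong to the hypoxia list, and nothing is read from this count.

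The VEGF ligands and co-receptors were mixed in direction, with 4 of 6 lower in MP_FOS and 2 higher. Their median log2 fold change was −0.14, and it ran from −0.28 to −0.03 over the alternative settings, with −0.03 without MP_FOS replicate 3. VEGFA, which KDR and FLT1 bind, had 26.7, 24.1 and 32.4 CPM in MP_FOS replicates 1, 2 and 3, against 16.6, 29.3 and 18.4 CPM in CT replicates 1, 2 and 3. CT replicate 2 was as high as the MP_FOS libraries, so the diets overlapped, and the log2 fold change was 0.37 ± 0.24. VEGFD, a ligand of FLT4, averaged 42.2 ± 8.43 CPM in MP_FOS and 34.0 ± 7.93 CPM in CT (SD, n = 3 each). VEGFC, the other ligand of FLT4, averaged 5.62 ± 1.10 CPM in MP_FOS and 7.10 ± 2.05 CPM in CT. PGF, a ligand of FLT1, was near 2 CPM in both diets, at 1.91 ± 0.849 CPM in MP_FOS and 2.18 ± 0.248 CPM in CT. The co-receptor NRP2, which pairs with FLT4, had 85.8, 90.7 and 85.5 CPM in MP_FOS replicates 1, 2 and 3, against 113, 102 and 137 CPM in CT replicates 1, 2 and 3, without overlap and with a log2 fold change of −0.42 ± 0.14. NRP1, the co-receptor of KDR, averaged 64.5 ± 24.5 CPM in MP_FOS and 67.5 ± 9.13 CPM in CT.

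Among partners of the angiopoietin, Tie and CD93 proteins, 6 of 10 were lower, with a median log2 fold change of −0.14 (−0.30 when MP_FOS replicate 1 was left out, −0.07 when MP_FOS replicate 2 was). CDH5, the VE-cadherin of endothelial junctions and a partner of PTPRB, averaged 62.2 ± 9.07 CPM in MP_FOS and 86.1 ± 3.55 CPM in CT, a log2 fold change of −0.47 ± 0.14. ANGPT4, a further TEK ligand, stood at 24.3 ± 3.70 CPM in MP_FOS and 33.4 ± 6.17 CPM in CT, and SVEP1, a matrix protein that binds TIE1 in mammals, at 35.1 ± 10.8 CPM in MP_FOS and 51.8 ± 4.11 CPM in CT. In CDH5, ANGPT4 and SVEP1 MP_FOS lay lower without overlap, where 8.49% of all genes tested lay so. They were named for the smallest unadjusted p of this list, so nothing is read from this. The other partners tested overlapped between diets. The 4 that act inside the cell had log2 fold changes of −0.06 (FOXO1), 0.07 (DOK2), 0.00 (PTPN11) and 0.14 (SHC1), and the membrane sheddase ADAM17 had 0.04. Of the matrix and secreted partners, MMRN2 had −0.37 ± 0.32 and IGFBP7 had −0.23 ± 0.23. These 7 were named after their values were seen. The RefSeq symbol of SVEP1 is CR1.

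Among other endothelial genes the differences had a median nearer 0. Of 29 tested junction and surface genes 24 were lower (median log2 fold change −0.26, quartiles −0.41 to −0.07). The median was −0.11 without both replicates numbered 2. Without overlap 6 lay lower, where 8.49% of all genes tested lay so, and 1 lay higher (8.2% of all genes). VWF, the clotting protein stored with angiopoietin-2, averaged 170 ± 26.5 CPM in MP_FOS and 252 ± 16.3 CPM in CT, a log2 fold change of −0.57 ± 0.15, and ADGRF5, an adhesion receptor, 8.94 ± 1.47 CPM in MP_FOS and 14.1 ± 2.06 CPM in CT. PECAM1, the common endothelial marker, had 110, 66.0 and 113 CPM in MP_FOS replicates 1, 2 and 3, against 113, 129 and 107 CPM in CT replicates 1, 2 and 3, so that only MP_FOS replicate 2 stood below the CT range. The leukocyte adhesion genes VCAM1 and SELE, which cytokines induce on endothelium, had higher means in MP_FOS, with log2 fold changes of 1.00 ± 0.37 and 0.77 ± 0.35. VCAM1 had 28.4, 81.7 and 77.5 CPM in MP_FOS replicates 1, 2 and 3, against 35.0, 32.1 and 26.9 CPM in CT replicates 1, 2 and 3, with MP_FOS replicate 1 inside the CT range. PECAM1, VCAM1 and SELE were named after their values were seen.

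Endothelial transcription factors were lower in 16 of 18 (median −0.26), as were tip cell, Notch and artery or vein genes in 16 of 18 (median −0.26). With MP_FOS replicate 1 left out, the median was −0.50 for the factors and −0.49 for the Notch list, and with MP_FOS replicate 2 left out it was −0.13 for the Notch list. ETS1, of the ETS family, averaged 86.9 ± 14.9 CPM in MP_FOS and 120 ± 7.64 CPM in CT. FLI1, of the same family, stood at 51.3 ± 10.5 CPM in MP_FOS and 66.8 ± 3.72 CPM in CT. MEF2C stood at 7.75 ± 0.736 CPM in MP_FOS and 12.3 ± 1.23 CPM in CT. The netrin receptor UNC5B and the Notch target HEY2 had log2 fold changes of −0.50 ± 0.17 and −0.69 ± 0.27. DLL4, the Notch ligand of tip cells, had a higher mean in MP_FOS but overlapping diets, with 33, 78.1 and 44.1 CPM in MP_FOS replicates 1, 2 and 3, against 25.1, 35.2 and 30.4 CPM in CT replicates 1, 2 and 3.

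Lymphatic genes were lower in 8 of 10 (median −0.29) and pericyte and mural genes in 12 of 14 (median −0.35). Of the mural genes 6 lay lower without overlap, where 8.49% of all genes tested lay so. Higher without overlap lay 1 (8.2% of all genes), COX4I2, which was named after its values were seen and has the RefSeq symbol COX4I1. ITGA9, an integrin of lymphatic valves, averaged 17.9 ± 0.634 CPM in MP_FOS and 29.9 ± 6.57 CPM in CT, and RELN 17.8 ± 2.89 CPM in MP_FOS and 25 ± 3.75 CPM in CT. The chemokine CCL21 (a gene without a symbol of its own in RefSeq), which lymphatic endothelium secretes and other stromal cells also make, stood at 86.7 ± 25.2 CPM in MP_FOS and 179 ± 61.2 CPM in CT. PROX1 and LYVE1, defining lymphatic markers that were named after their values were seen, had log2 fold changes of −0.20 ± 0.16 and −0.04 ± 0.26. Of the lymphatic genes 4 lay lower without overlap, PROX1 among them, where 8.49% of all genes tested lay so. LYVE1 overlapped between diets. PDGFRB, the pericyte receptor, averaged 24.3 ± 2.30 CPM in MP_FOS and 34.7 ± 2.28 CPM in CT, and EDNRA and COL4A2 had log2 fold changes of −0.44 ± 0.15 and −0.39 ± 0.13.

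Hypoxia response genes, which in many tissues rise together with VEGFA, were split evenly, with 10 of 20 lower and a median of 0.00 (−0.07 on FPKM). The median of all genes tested was itself −0.06 on log2(FPKM + 1) and −0.07 on log2(FPKM + 0.1). CA9, HK2 and PFKFB3, an anhydrase and enzymes of glycolysis, had higher means in MP_FOS, with log2 fold changes of 0.55 ± 0.13, 1.18 ± 0.37 and 0.56 ± 0.21, and EGLN3, named after its values were seen, had −0.88 ± 0.61. HK2 was highest in MP_FOS replicate 2, with 194, 590 and 366 CPM in MP_FOS replicates 1, 2 and 3. Its CT replicates 1, 2 and 3 had 146, 192 and 169 CPM.

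**Figure D4:**
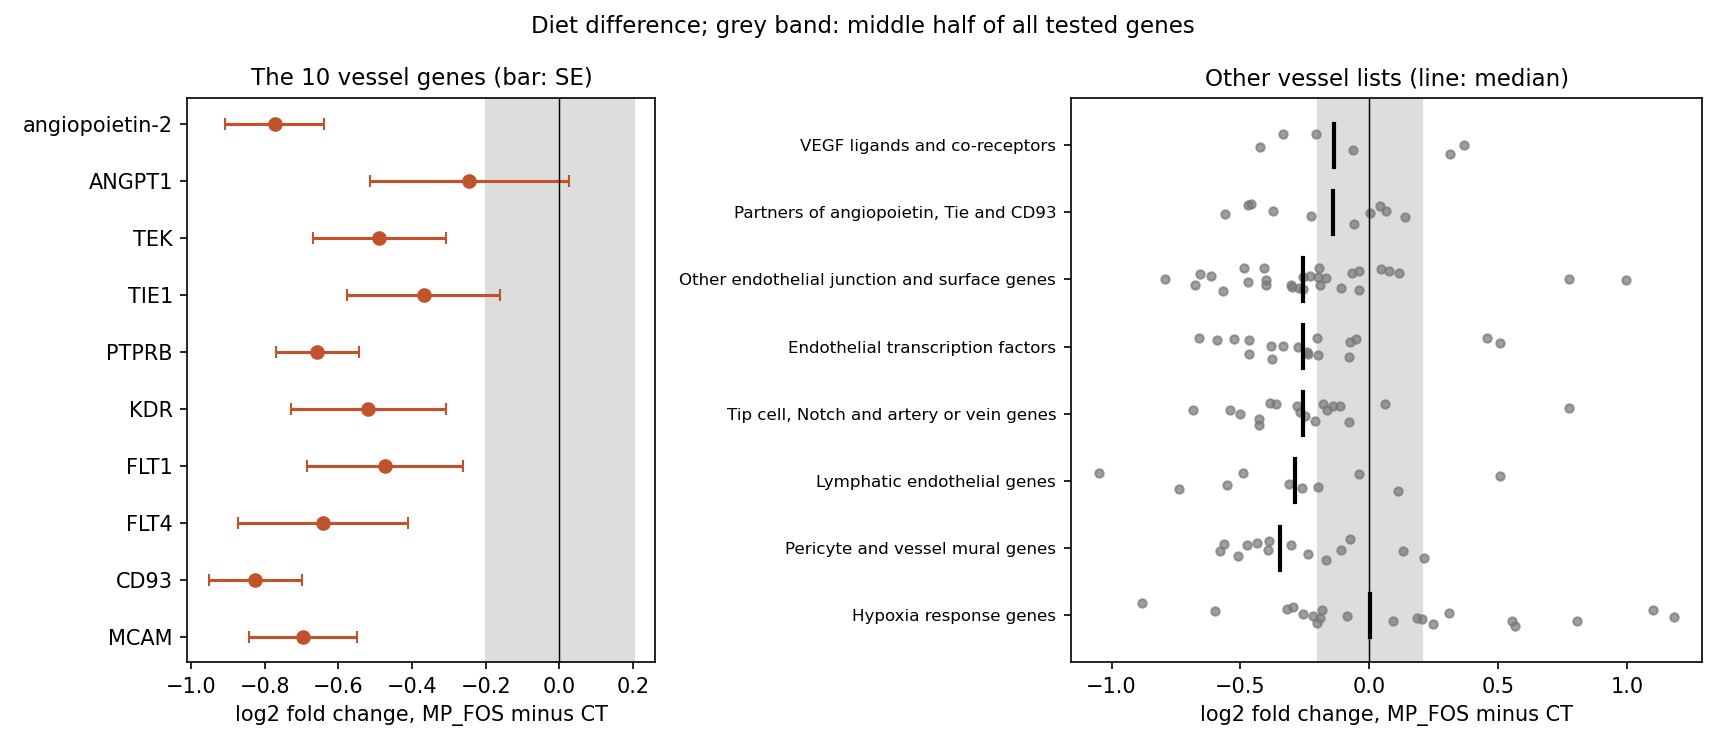
Log2 fold change of MP_FOS minus CT (edgeR) for the 10 vessel genes with SE (left) and for each tested gene of the other vessel lists with the list median (right); the grey band spans the quartiles of all tested genes, −0.20 to 0.20. All 10 genes lie below 0, and list medians run from −0.35 (pericyte and mural) to 0.00 (hypoxia).

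Markers of other cell types were summed in the same way. The 10 vessel genes summed to 73.4, 60.8 and 62.9% of their CT mean in MP_FOS replicates 1, 2 and 3, against 99.0, 92.9 and 108% in CT replicates 1, 2 and 3. The 29 junction and surface genes summed to between 79.2 and 90.4% in MP_FOS and between 97.7 and 103% in CT. Fibroblast and neural lists were also lower in MP_FOS. Fibroblast markers (12 of 12 tested, 11 lower, 9 without overlap) had a median of −0.44 in log2 fold change and summed to 64.6 to 91.4% of their CT mean in MP_FOS and 98.6 to 103% in CT, or between 4077 and 5774 CPM in MP_FOS and between 6228 and 6479 CPM in CT. Enteric neuron and glia markers (14 of 14 tested and lower, 7 without overlap) had a median of −0.56, beside −0.58 for the 10 vessel genes, and summed to 55.9 to 90.2% in MP_FOS and 96.6 to 106% in CT, or between 109 and 176 CPM in MP_FOS and between 188 and 206 CPM in CT. Over all genes tested 8.49% lay lower without overlap. The largest part of the fibroblast sum was COL3A1, at 2516 CPM in MP_FOS and 3090 CPM in CT. The fibroblast marker PI16 averaged 9.14 ± 1.69 CPM in MP_FOS and 21.5 ± 2.17 CPM in CT. It was called by DESeq2 (adjusted p = 0.000226) and not by edgeR. No marker of either list was at 0 in all libraries. The sums of smooth muscle markers (12 of 12 tested, 6 lower) overlapped between diets, as did each of these markers. Enterocytes line the ileum, and the sums of their markers (13 of 13 tested, 4 lower) also overlapped. These sums ran between 15417 and 25741 CPM in MP_FOS and between 18730 and 24336 CPM in CT. The median log2 fold change of the enterocyte list was 0.18. Its marker KRT20 (RefSeq symbol KRT40) lay higher in MP_FOS without overlap, with a log2 fold change of 0.75 ± 0.25, and the others overlapped. The sums of erythroid and thrombocyte markers (7 of 12 tested, 2 lower) overlapped too. Most of this sum was the gene that the file calls ALAS2, at 97.9 CPM in MP_FOS and 116 CPM in CT. Its RefSeq symbol is ALAS1, so the sum says little about blood cells. Macrophage markers (10 of 10 tested, 6 higher in MP_FOS) had a median of 0.28. Of these, C1QB, CTSS and SPI1 were higher in MP_FOS without overlap, where 8.2% of all genes tested lay so. CTSS was called by DESeq2 (adjusted p = 0.0359) and not by edgeR. The sum of this list overlapped, but most of it was CD74, at 8583 CPM in MP_FOS and 9042 CPM in CT. All marker genes of other cell types that this paragraph names were named after their values were seen. T and B cell markers (12 of 12 tested, 7 lower) summed to between 1138 and 1476 CPM in MP_FOS and between 977 and 1125 CPM in CT. In this sum GZMA averaged 480 ± 265 CPM in MP_FOS and 181 ± 112 CPM in CT, and CD3E 449 CPM in MP_FOS and 454 CPM in CT. Without overlap 2 markers lay lower, the B cell genes CXCR5 (log2 fold change −1.35 ± 0.35) and CD72 (−1.30 ± 0.39). Higher without overlap lay 2, the T cell genes CD8A (0.27 ± 0.11) and CTLA4 (0.95 ± 0.31). The symbol CD8A is borne by 3 genes, and only the 1 with the highest mean count was used. The part of these other cell types in the lower vessel genes was not tested.

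**Figure D5:**
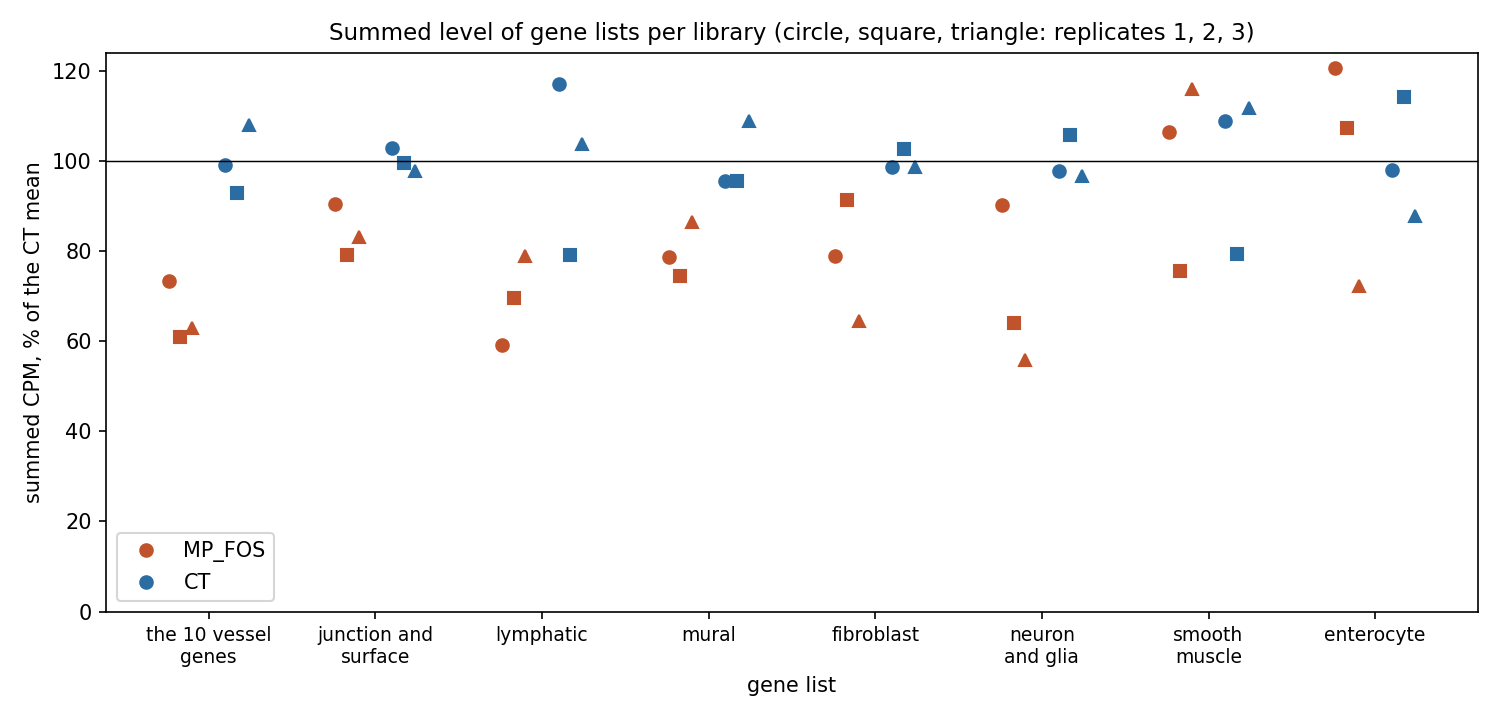
Summed normalised CPM of each gene list in each library as a percentage of its CT mean, with MP_FOS left of CT and symbols for replicates 1, 2 and 3. The 10 vessel genes lie at 60.8 to 73.4% in MP_FOS, neuron and glia markers at 55.9 to 90.2% and fibroblast markers at 64.6 to 91.4%, all below CT without overlap, while smooth muscle and enterocyte markers overlap.

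Median log2 fold changes of all genes also varied with transcript length. Of the 10 genes, 8 fell in the longest of 4 equal bins of relative transcript length, whose median log2 fold change over all genes was −0.06, and angiopoietin-2 and CD93 fell in the third bin, with a median of 0.02. The shortest bin had a median of 0.07. The part of length in the values of the 10 genes was not tested.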

How the data were processed

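RNA of 6 ileum libraries was analysed from 1 deposited table. It holds expected counts, 7.98% of them not whole, and FPKM, both computed by the authors and named as such per the file headers. Tools listed in the submitters' processing notes, with no role or order, are DESeq2, StringTie, HISAT2, Bowtie2 and fastp 0.18.0. Which program counted reads, and on which build, is not given in the sources used here. According to the labels, total RNA was taken with TRIzol and a kit for small RNA was used.

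After rounding, the counts went into edgeR 4.0.16 under R 4.3.3 (filterByExpr, TMM, quasi-likelihood F test, two-sided, Benjamini-Hochberg over 13774 genes, threshold 0.05). The SE is the absolute log2 fold change over the square root of F. Across libraries 1 count stood for 0.0531 to 0.0843 CPM, and the 10 genes had 100 to 1849 counts per library, at the 29.1 to 77.0 percentile of mean CPM. Log2 CPM carried a prior count of 0.5. Relative transcript length is the ratio of count to FPKM. The code was checked on simulated counts.

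The members, lists and tests were chosen with earlier results of these data known. Named genes are the 10, the 3 with the smallest unadjusted p and at least 1 CPM in each vessel list, all VEGF ligands and co-receptors, and the 8 genes most like the mean of the 10 within diets. Symbols are those of the file, or of RefSeq (GRCg7b) through the NCBI gene identifier; where the names differ, the name in the file is used. Alternatives were DESeq2 1.42.0 (Wald test or size factors), other filters, limma 3.58.1 (limma-trend) on log2(FPKM + 1) or log2(FPKM + 0.1), a block for the replicate number, and fits without 1 or 2 of the libraries. The authors' FPKM served for levels between genes.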

Additional observations from a re-analysis of the deposited data

How the results depend on the processing

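All 10 genes kept a log2 fold change below 0 in each of 14 alternative settings, and their median ran from −0.70 to −0.48. The count of genes called by edgeR was 0 with DESeq2 size factors, either other filter and the replicate block. It was also 0 with either limma-trend fit on FPKM, and 104 with DESeq2's own test. Leaving out 1 library from the edgeR fit gave 0 to 223 calls, the 223 (180 higher, 43 lower) without MP_FOS replicate 1. Leaving out both libraries numbered 2 gave 1. Calls among the 122 vessel list genes ran from 0 to 3 with 1 library left out. CD93 was the only 1 of the 10 genes called in these fits, without MP_FOS replicate 1. It was chosen from this contrast, so nothing is read from that call. Each of these fits with 2 libraries in an arm pools the spread over both arms. The number of the 10 genes whose diets did not overlap, an alternative added after seeing the data, was 5 to 9 with 1 library left out, 9 of them without MP_FOS replicate 1 (18.6% of all genes tested), 7 in FPKM (12%) and 7 without both libraries numbered 2 (19.6%). The median of all genes on log2(FPKM + 0.1) was −0.07. Same-numbered libraries of the diets had correlations of 0.04, 0.33 and 0.17 between their deviations from the diet means. Of the 6 libraries 4 correlated best with their own number. The labels do not say that the numbers pair the diets, so the main fit had no block for them. With the replicate block the median of the 10 genes was −0.59. With 3 libraries per diet an exact permutation test of a single gene cannot reach 0.05, and none was run.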
